A study of Homo sapiens with 18 samples.

Results

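The unfolded protein response and the integrated stress response were followed through 36 genes, listed by symbol and found in all 18 count tables among 58288 gene identifiers. They comprised 15 chaperones, folding enzymes and degradation factors of the endoplasmic reticulum (ER), 4 sensor or sensor-linked genes (XBP1, ATF6, ERN1 and EIF2AK3) and 17 genes of the ATF4 branch. The 3 branches were read apart. All 36 passed the filter on low counts, all had at least 1 CPM (counts scaled to library size) in every library, and the lowest count was 85, for TRIB3.

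The unfolded protein response is started by proteins of the ER membrane that sense misfolded protein. IRE1, encoded by ERN1, splices the XBP1 mRNA, ATF6 is cut in the Golgi into a transcription factor, and both routes raise chaperones and the machinery of ER-associated degradation (ERAD). PERK, encoded by EIF2AK3, phosphorylates the translation factor eIF2, as do other kinases that sense amino acid shortage, double-stranded RNA or heme shortage, and this integrated stress response lowers general translation while favoring translation of ATF4. ATF4 in turn induces genes of amino acid synthesis and import, the redox peptide glutathione and, through DDIT3 (CHOP), cell death. Secretory and matrix-producing cells rely on the first route, and cells short of amino acids on the second. Neither XBP1 splicing, ATF6 cleavage nor ATF4 translation can be read from counts per gene.

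The study compared 3 high-grade serous ovarian cancer lines, Kuramochi, OVCAR4 and OVCAR8, on a 3D omentum culture and on plastic, to follow gene expression in early colonization of the omentum. The 3D culture was made of primary human omental fibroblasts mixed with collagen I and overlaid with primary human mesothelial cells, grown for 24 h before GFP-labeled cancer cells were added for 48 h and recovered by fluorescence-activated sorting. The plastic controls were the same GFP-labeled cells seeded directly on dishes and sham sorted. Each of the 6 groups had 3 libraries, described as independent experiments by the study's methods, and each line is a single genetic background (passages 35-45 for Kuramochi, 45-55 for OVCAR4 and 30-40 for OVCAR8). Libraries are called by the replicate number of their label (2, 4 and 8 in Kuramochi, 42, 4 and 6 in OVCAR4, 4, 61 and 62 in OVCAR8), and values are listed in that order throughout.

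Promoters of the members were searched, from 250 bases before to 50 bases after the RefSeq start, for the letters of the elements that these pathways are known to use. The ER stress element (ERSE) was read as CCAAT, 9 bases and CCACG, ERSE-II as ATTGG, 1 base and CCACG, the core of the unfolded protein response element (UPRE) as TGACGTG, and the core of the CEBP-ATF response element bound by ATF4 (CARE) as TGATGNAA, all on both strands. Of the 36 members 35 had a promoter entry (SLC7A11 did not). A match to any of the 4 motifs stood in 6 of 15 ER chaperone and ERAD promoters (HSPA5, HSP90B1, CRELD2, SDF2L1, HERPUD1 and HYOU1), in 1 of 4 sensor promoters (XBP1) and in 3 of 16 ATF4 branch promoters (CHAC1, ASNS and SLC3A2). The ERSE was in 27 of all 35116 promoters (0.0769%), the ERSE-II in 19 (0.0541%), the UPRE core in 692 (1.97%) and the CARE core in 1270 (3.62%). The ERSE and ERSE-II matches all fell in the chaperone and sensor promoters, the ATF4 branch matches were all CARE cores, and HERPUD1 held both an ERSE-II and a CARE core. The following stretches are from RefSeq, build GRCh38.p14, 5′ to 3′ on the gene's strand, with 25 bases on either side of the outermost matches and the matches in capitals. They are shown because each holds a searched element in a gene whose values are given below, 3 of the chaperone and ERAD genes, the 1 sensor with a match and 2 ATF4 targets: HSPA5 at chr9:125241366-125241434 on the minus strand, HYOU1 at chr11:119057249-119057418 on the minus strand, XBP1 at chr22:28800578-28800646 on the minus strand, HERPUD1 at chr16:56931941-56932060 on the plus strand, CHAC1 at chr15:40953237-40953294 on the plus strand and ASNS at chr7:97872444-97872501 on the minus strand.
HSPA5: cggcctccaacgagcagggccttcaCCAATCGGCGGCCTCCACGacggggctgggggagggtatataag
HYOU1: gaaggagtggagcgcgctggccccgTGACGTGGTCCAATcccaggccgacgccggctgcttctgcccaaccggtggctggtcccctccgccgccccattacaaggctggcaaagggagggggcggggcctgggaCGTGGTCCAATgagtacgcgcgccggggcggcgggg
XBP1: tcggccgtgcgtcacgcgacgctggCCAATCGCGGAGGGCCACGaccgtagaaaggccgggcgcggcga
HERPUD1: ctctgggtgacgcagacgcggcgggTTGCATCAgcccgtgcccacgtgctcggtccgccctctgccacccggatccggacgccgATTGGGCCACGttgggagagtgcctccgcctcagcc
CHAC1: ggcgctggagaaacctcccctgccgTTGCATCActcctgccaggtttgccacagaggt
ASNS: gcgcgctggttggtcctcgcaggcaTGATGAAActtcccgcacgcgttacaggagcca
The HSPA5 and XBP1 stretches each hold an ERSE. In the HYOU1 stretch the first capitals are a UPRE core overlapping an ERSE-II and the second an ERSE-II. The HERPUD1 stretch holds a CARE core and then an ERSE-II, and those of CHAC1 and ASNS a CARE core each. A match describes the letters of the window and was not tested for binding.

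Libraries held 28415048 to 43142540 counts (median 33980300), and 22023 genes were tested. OVCAR4 3D 4 and 6 lay close together (chi-square per degree of freedom 1.98), as did OVCAR8 3D 61 and 62 (2.75) and OVCAR8 plastic 4 and 62 (3.12), against 9.43 to 114 for the other pairs of a group. The tables of OVCAR8 3D 61 and 62 were headed as set 1 and set 2 of the same number, and whether they share a culture is not stated, so OVCAR8 results that rest on them are given with and without them. OVCAR4 42 was headed 4_2 in both cultures, beside library 4, and whether 42 and 4 share a culture is not stated either. These did not lie close together (36.4 on 3D and 82.1 on plastic). Epithelial and ovarian cancer markers summed to 2520 to 5550 CPM over all libraries, with EPCAM, KRT8 and PAX8 among the 7. KRT19 and MUC16 were at 0 in OVCAR8 plastic, and EPCAM was at 2.72 to 5.65 CPM in Kuramochi and 15.3 to 18.1 CPM in OVCAR8 against 343 to 443 CPM in OVCAR4, so the label rested on other markers in these lines. KRT19 was at 0.488, 3.43 and 2.4 CPM in OVCAR8 3D. Sums of the 10 fibroblast markers were 1130, 580 and 1380 CPM in Kuramochi 3D against 346 to 443 on plastic, 140, 1210 and 1180 CPM in OVCAR4 3D against 21.1 to 21.6, and 702, 2940 and 2040 CPM in OVCAR8 3D against 661 to 725. DCN (decorin), a defining fibroblast gene, was at 0 counts in all 9 plastic libraries and at 9.99, 1.36 and 15.1 CPM in Kuramochi 3D, 1.33, 16.7 and 16.7 CPM in OVCAR4 3D and 0.407, 30.8 and 16.8 CPM in OVCAR8 3D. The 8 mesothelial markers summed to 40.8 to 55.6 CPM in Kuramochi 3D (38.0 to 88.3 on plastic), 121 to 135 CPM in OVCAR4 3D (105 to 175) and 58.0 to 59.8 CPM in OVCAR8 3D (48.6 to 55.5). The sums hid single markers. Of 7 tested, 5, 4 and 3 rose and 1, 0 and 0 fell in Kuramochi, OVCAR4 and OVCAR8 (edgeR, adjusted p under 0.05). Of all genes 14.4%, 15.2% and 7.51% rose. In all plastic libraries of a line 3 of the 8 were at 0 in Kuramochi and 2 in OVCAR8, and on 3D 0 were in any line. RNA of omental cells that passed the sort would be counted with that of the cancer cells, and in bulk samples fewer cells of a type and less RNA per cell cannot be told apart.

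The branches gave unlike counts in the 3 lines. Some ER chaperone and ERAD genes rose by less than 2-fold in each line, most sensor genes rose in Kuramochi and OVCAR4, and most ATF4 branch genes rose in OVCAR8. In Kuramochi 5 of 15 ER chaperone and ERAD genes, 4 of 4 sensors and 1 of 17 ATF4 branch genes rose at an adjusted p under 0.05, where 14.4% of all genes rose, and 1, 0 and 2 fell, where 12.8% of all genes fell. In OVCAR4 5, 3 and 1 rose against 15.2% of all genes, and 0, 0 and 2 fell against 11.9%. In OVCAR8 4, 1 and 10 rose against 7.51%, and 0, 0 and 1 fell against 3.32%. Among the members, the genes called at 2-fold or more were all of the ATF4 branch. SLC7A11 rose 2-fold in Kuramochi (5.52% of all genes), no member in OVCAR4 (6.28%) and 6 in OVCAR8 (5.13%), and 0, 0 and 1 fell 2-fold (2.64%, 1.86% and 0.722% of all genes). The median log2 difference of the ATF4 branch was -0.17 in Kuramochi, -0.20 in OVCAR4 and 0.79 in OVCAR8, that of the ER chaperone and ERAD genes 0.08, 0.18 and 0.31, and that of the sensors 0.64, 0.63 and 0.13, beside 0.02, 0.04 and 0.02 for all genes. These counts rested in part on the close libraries. With those counted as 1 sample, 2 of 17 ATF4 branch genes rose in OVCAR8, where 1.61% of all genes rose. In OVCAR4 1 of 4 sensors then rose, against 5.44% of all genes.

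**Figure D1:**
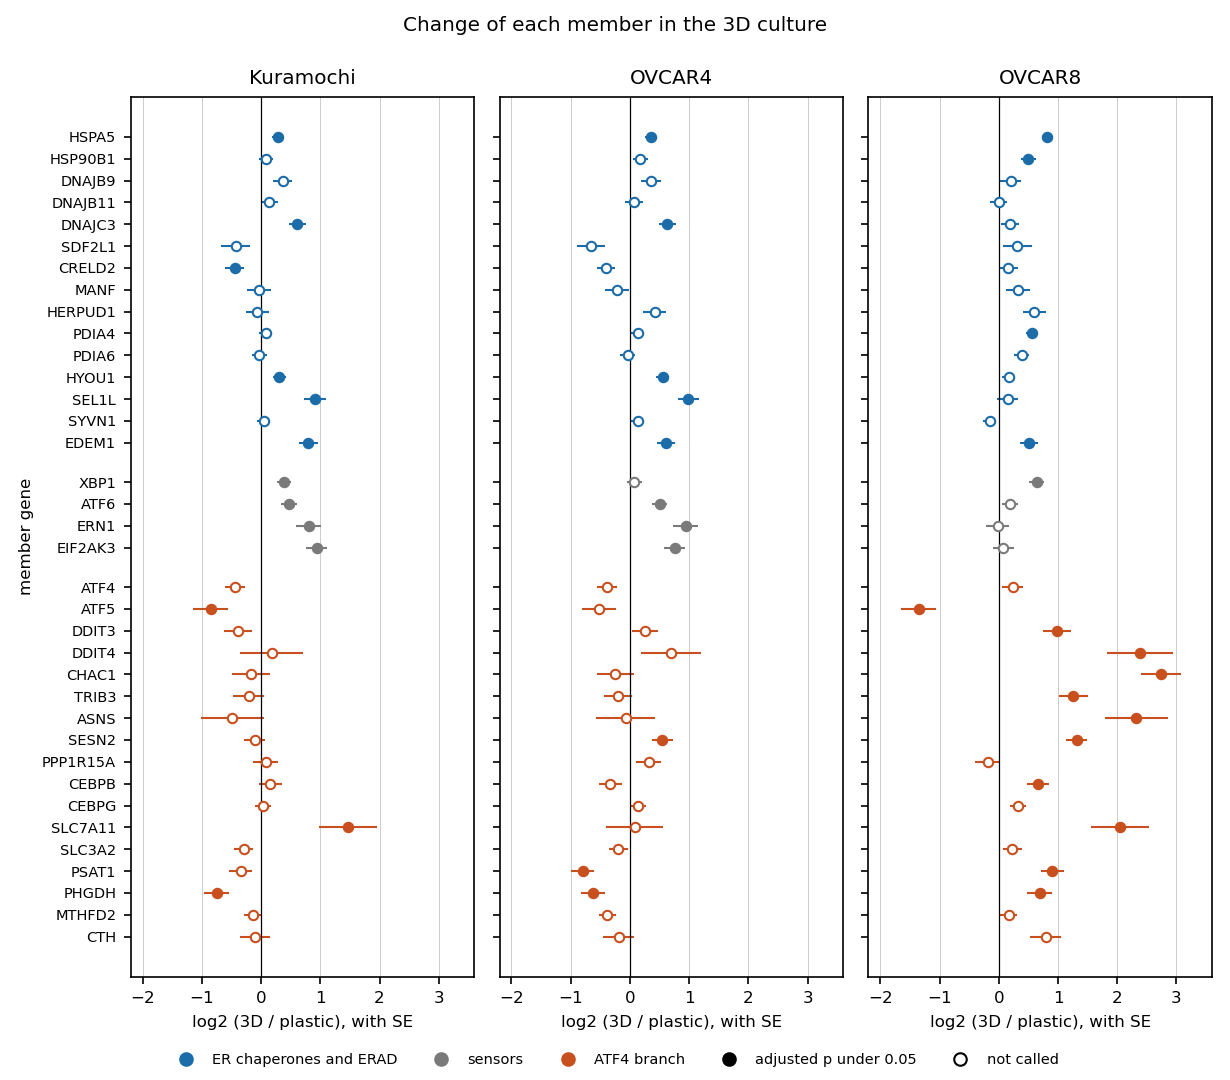
Log2 difference of 3D against plastic for the 36 members in each line, grouped by branch, with marks for the adjusted p of the genewise test. In OVCAR8 the ATF4 branch reaches 2.74 for CHAC1, while its median is -0.17 in Kuramochi and -0.20 in OVCAR4.

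On plastic the lines entered the comparison at different levels. Per kilobase of transcript, HSP90B1 (GRP94, the HSP90 of the ER) ranked first of the 36 in every line, at 224, 513 and 313 CPM per kb in Kuramochi, OVCAR4 and OVCAR8, and ATF4 was among the first 4 in each. ERN1 ranked last in Kuramochi (0.638 CPM per kb) and OVCAR4 (0.602), whereas DNAJB9, which holds IRE1 inactive together with BiP, ranked last in OVCAR8 (1.86). OVCAR8 stood above Kuramochi for ERN1 (log2 difference 2.17 ± 0.21 (SE), adjusted p = 4.68e-08) and below it for DNAJB9 (log2 difference -2.38 ± 0.18 (SE), adjusted p = 1.55e-09). Some ATF4 branch genes were higher in OVCAR4 on plastic than in Kuramochi, such as ASNS, TRIB3 and DDIT4, while PPP1R15A and PSAT1 were lower (log2 difference -1.02 ± 0.21 (SE), adjusted p = 0.000432, and log2 difference -0.51 ± 0.19 (SE), adjusted p = 0.0286). ASNS (asparagine synthetase) was at 95.9 CPM per kb there against 7.31 in Kuramochi and 12 in OVCAR8, and TRIB3, a pseudokinase that feeds back on the response, at 34.1 against 2.12 and 7.19. DDIT4 (REDD1, an inhibitor of mTORC1) was at 66.5 CPM per kb in OVCAR4 against 6.22 and 3.5. The OVCAR4 level of TRIB3 exceeded that of Kuramochi (log2 difference 4.01 ± 0.27 (SE), adjusted p = 6.38e-10), as did that of ASNS (log2 difference 3.72 ± 0.56 (SE), adjusted p = 3.49e-05). In all, 13 of 36 members differed at least 2-fold between OVCAR4 and Kuramochi (38.1% of all genes), 9 between OVCAR8 and Kuramochi (45.1%) and 15 between OVCAR8 and OVCAR4 (46.7%).

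**Figure D2:**
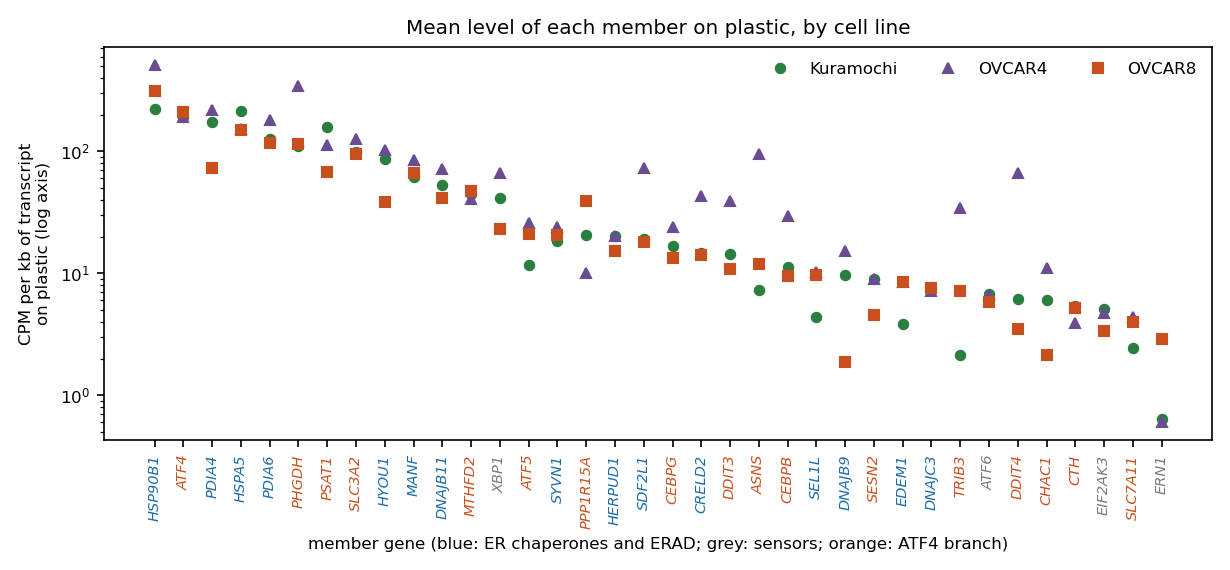
Levels of the members on plastic in the 3 lines, in CPM per kb of transcript on a log axis. HSP90B1 lies highest in each line, and TRIB3, ASNS and DDIT4 lie highest in OVCAR4.

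The sensor genes rose together in Kuramochi and OVCAR4 apart from XBP1 in OVCAR4. EIF2AK3 (PERK) was at 39.5, 41.1 and 52.3 CPM in the Kuramochi 3D libraries and 28.6, 16.8 and 24.1 CPM on plastic (log2 difference 0.94 ± 0.18 (SE), adjusted p = 0.00159). In OVCAR4 it was at 30.2, 39.7 and 38.7 CPM against 21.8, 17.2 and 25.1 CPM (log2 difference 0.76 ± 0.18 (SE), adjusted p = 0.00596). In OVCAR8 it was at 15.5, 16.4 and 16 CPM against 15.4, 14.6 and 15.4 CPM and did not pass (log2 difference 0.08 ± 0.18 (SE), adjusted p = 0.828). The 3D libraries lay above all plastic libraries in each line, by a margin that was small in OVCAR8. ERN1 (IRE1) read 7.4, 9.6 and 9.48 CPM in the Kuramochi 3D libraries and 6.5, 4.6 and 4.02 CPM on plastic (log2 difference 0.81 ± 0.21 (SE), adjusted p = 0.00914). It read 8.52, 9.49 and 9.45 CPM in OVCAR4 3D against 5.56, 3.31 and 5.4 CPM (log2 difference 0.95 ± 0.21 (SE), adjusted p = 0.00415), again without overlap. In OVCAR8, where its level was highest, the 3D values of 18.4, 25.8 and 23.3 CPM overlapped the plastic values of 23.8, 21.1 and 23.5 CPM (log2 difference -0.02, adjusted p = 0.982). ATF6 was at 59, 76.4 and 73.2 CPM in the Kuramochi 3D libraries and 53.3, 46.8 and 50.3 CPM on plastic (log2 difference 0.47 ± 0.13 (SE), adjusted p = 0.0141), and at 67.9, 71.8 and 72 CPM against 60.9, 40.6 and 48.2 CPM in OVCAR4 (log2 difference 0.50 ± 0.13 (SE), adjusted p = 0.0108), with the groups apart in both lines. In OVCAR8 ATF6 was 0.19 apart on the log2 scale (adjusted p = 0.385).

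XBP1, the mRNA that IRE1 splices and itself a target of ATF6, followed another order. It rose in OVCAR8, from 41.6, 40.8 and 40.4 CPM on plastic to 52.4, 69.4 and 69.5 CPM (log2 difference 0.64 ± 0.13 (SE), adjusted p = 0.00331), with library 4 lowest of the 3D libraries and still above plastic. With library 4 as the lone 3D library, its difference was 0.37 (adjusted p = 0.748). In Kuramochi it stood at 97.6, 91.9 and 102 CPM against 68.5, 73.8 and 80.7 CPM (log2 difference 0.39 ± 0.13 (SE), adjusted p = 0.0302), without overlap. In OVCAR4 the groups overlapped, at 109, 131 and 137 CPM against 107, 129 and 122 CPM (adjusted p = 0.709). None of the 4 sensors differed between lines in its 3D change (lowest adjusted p = 0.0772, for ERN1, by edgeR). Sensor calls that rested on single libraries were, in Kuramochi, XBP1 (lost without any 1 of Kuramochi 3D 2 and 8, Kuramochi plastic 2, 4 and 8, OVCAR8 plastic 61, adjusted p up to 0.104), ATF6 (lost without any 1 of Kuramochi 3D 4 and 8, Kuramochi plastic 4, adjusted p up to 0.0678) and ERN1 (lost without Kuramochi plastic 8, adjusted p = 0.0514), and in OVCAR4 ATF6 (lost without OVCAR4 plastic 4, adjusted p = 0.0875). Without Kuramochi 3D 8, plastic 4 or plastic 8 the count in Kuramochi was 2 of 4, where 8.97%, 7.13% and 9% of all genes rose. Fibroblast sums were higher in every 3D library than on plastic in Kuramochi and OVCAR4, and in OVCAR4 the 3D library with the lowest sum, 42 (140 CPM), was the lowest of the 3D libraries for 4 of 4 sensors and had an ER chaperone and ERAD mean of 0.17 against 0.24 in 4 and in 6 (log2, relative to plastic). The part of these cells in the rises was not tested. OVCAR4 3D 4 and 6 lay close together, so any gene may often be lowest or highest in 42. The share over all genes was not counted. Without OVCAR4 3D 4 and 6, 0 sensors, 0 ER chaperone and ERAD genes and 0 ATF4 branch genes were called in OVCAR4, where 0.429% of all genes rose.

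Among chaperones, HSPA5 (BiP, the HSP70 of the ER and the classic target of ATF6) and EDEM1 were the members of the branch that were called in all 3 lines. HSPA5 was at 1120, 1000 and 995 CPM in the OVCAR8 3D libraries and 584, 592 and 593 CPM on plastic (log2 difference 0.82 ± 0.093 (SE), adjusted p = 1.62e-05), with library 4 highest. In OVCAR4 it was at 762, 758 and 761 CPM against 616, 593 and 584 CPM (log2 difference 0.35 ± 0.092 (SE), adjusted p = 0.0111), and in Kuramochi at 1070, 989 and 1010 CPM against 832, 820 and 874 CPM (log2 difference 0.28 ± 0.092 (SE), adjusted p = 0.0294). No 3D library overlapped plastic in any line. The change of HSPA5 differed between lines (adjusted p = 0.0301, edgeR), and it was larger in OVCAR8, but with the replicate number as a block the difference did not pass (adjusted p = 0.0835). This block also covered OVCAR4 and OVCAR8, where the number was not taken as a pairing. Without OVCAR8 3D 61 and 62 the OVCAR8 difference was 0.93 (adjusted p = 0.00046). HYOU1 (GRP170, the exchange factor of BiP) was at 656, 711 and 705 CPM against 517, 420 and 478 CPM in OVCAR4 (log2 difference 0.55 ± 0.11 (SE), adjusted p = 0.00266), and at 506, 506 and 455 CPM against 418, 407 and 362 CPM in Kuramochi (log2 difference 0.31 ± 0.11 (SE), adjusted p = 0.0489). DNAJC3 (p58IPK, a BiP cochaperone that also restrains PERK) rose in both of these lines, from 39.5, 42.5 and 45.6 CPM to 56.5, 66.2 and 72.1 CPM in Kuramochi (log2 difference 0.61 ± 0.15 (SE), adjusted p = 0.00592) and from 49.9, 31 and 39.6 CPM to 62.3, 61.6 and 62.7 CPM in OVCAR4 (log2 difference 0.63 ± 0.15 (SE), adjusted p = 0.0053). The groups did not overlap for either gene in either line. In OVCAR8 neither passed (adjusted p = 0.359 for HYOU1 and 0.429 for DNAJC3).

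HSP90B1 and PDIA4 passed in OVCAR8 and not in the other lines, although the difference between lines did not pass for either (adjusted p = 0.262 and 0.0804). HSP90B1 was at 1400, 1150 and 1140 CPM in the OVCAR8 3D libraries and 835, 896 and 885 CPM on plastic (log2 difference 0.50 ± 0.12 (SE), adjusted p = 0.0148), without overlap. PDIA4, a disulfide isomerase of the ER, was at 327, 286 and 287 CPM against 200, 210 and 199 CPM (log2 difference 0.56 ± 0.10 (SE), adjusted p = 0.00216), also without overlap, and in both genes library 4 was highest. Without 61 and 62 the log2 differences were 0.69 (adjusted p = 0.0573) for HSP90B1, which lost its call, and 0.70 (adjusted p = 0.0215) for PDIA4. PDIA6, another disulfide isomerase, and HERPUD1, an ERAD adaptor, lay above plastic in every OVCAR8 3D library without passing the test (log2 differences 0.39 and 0.60, adjusted p = 0.0539 and 0.0548). MANF, a secreted ER stress protein, was likewise above plastic in OVCAR8 (log2 difference 0.33, adjusted p = 0.331). CRELD2, a secreted ER stress protein, was the only member of the branch that fell, in Kuramochi, at 17.6, 14.4 and 14.8 CPM against 18.4, 26.4 and 18.7 CPM (log2 difference -0.44 ± 0.16 (SE), adjusted p = 0.0455). Its OVCAR4 values also lay below plastic, at 51.1, 46.7 and 42.3 CPM against 62.6, 67.6 and 55.4 CPM (adjusted p = 0.0593), as did those of SDF2L1, a BiP cochaperone, at 42, 36.4 and 36.4 CPM against 53.2, 75 and 52.4 CPM (adjusted p = 0.0502). Before the changes of fit described below, DNAJB9, DNAJB11 (a BiP cochaperone) and SYVN1 passed in no line, with log2 differences from -0.15 to 0.36.

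ERAD genes were led by EDEM1 and SEL1L. EDEM1, a lectin that directs misfolded glycoproteins to degradation, was at 37.6, 40.1 and 45 CPM in the Kuramochi 3D libraries and 30.7, 18.8 and 21 CPM on plastic (log2 difference 0.80 ± 0.16 (SE), adjusted p = 0.00191). It was at 71.6, 83.9 and 81.8 CPM against 47.7, 45.7 and 62.4 CPM in OVCAR4 (log2 difference 0.61 ± 0.16 (SE), adjusted p = 0.00945) and at 74.3, 73.7 and 72.4 CPM against 53, 48.8 and 53.3 CPM in OVCAR8 (log2 difference 0.51 ± 0.16 (SE), adjusted p = 0.0437), without overlap in any line. Without OVCAR8 3D 61 and 62 EDEM1 stood at 0.53 (adjusted p = 0.658) there. SEL1L, the scaffold of the ubiquitin ligase encoded by SYVN1, rose in Kuramochi from 44.2, 28.7 and 31.7 CPM to 52.6, 69.3 and 74.8 CPM (log2 difference 0.91 ± 0.18 (SE), adjusted p = 0.00207). In OVCAR4 it rose from 102, 58.2 and 82.4 CPM to 163, 161 and 156 CPM (log2 difference 0.99 ± 0.18 (SE), adjusted p = 0.00159), and both lines kept the groups apart. In OVCAR8 SEL1L differed by 0.15 (adjusted p = 0.637), while SYVN1 itself was 0.05, 0.13 and -0.15 apart in Kuramochi, OVCAR4 and OVCAR8. Chaperone and ERAD calls that rested on single libraries were, in Kuramochi, HSPA5 (lost without any 1 of Kuramochi 3D 2 and 8, Kuramochi plastic 4 and 8, OVCAR8 plastic 61, adjusted p up to 0.103), HYOU1 (lost on leaving out any 1 library but Kuramochi plastic 2, OVCAR4 plastic 42 and 4, OVCAR8 3D 4, adjusted p up to 0.233) and CRELD2 (lost on leaving out any 1 library but Kuramochi 3D 2, Kuramochi plastic 2 and 8, OVCAR4 3D 42, OVCAR4 plastic 4, OVCAR8 3D 4 and 62, OVCAR8 plastic 61, adjusted p up to 0.269). In OVCAR4 there was EDEM1 (lost without OVCAR4 plastic 4, adjusted p = 0.0682), and in OVCAR8 HSP90B1 (lost without any 1 of OVCAR8 plastic 4 and 62, adjusted p up to 0.0806) and EDEM1 (lost on leaving out any 1 library but Kuramochi 3D 2, Kuramochi plastic 2, 4 and 8, OVCAR4 3D 42, OVCAR4 plastic 42, 4 and 6, adjusted p up to 0.145). With the replicate number as a block, which pairs the libraries in Kuramochi, the adjusted p there was 0.069 for HSPA5, 0.0625 for HYOU1 and 0.0555 for CRELD2, which lost their calls, and 0.0496 for DNAJB9, which gained one. The branch count was 3 of 15 in Kuramochi without 3D 2, 3D 8, plastic 4 or OVCAR8 plastic 61, where 14.1%, 8.97%, 7.13% and 11.9% of all genes rose. It was 2 of 15 in OVCAR8 without plastic 4 or 62, where 3.34% and 3.32% rose.

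Transcript length, that of the Ensembl canonical transcript, moved with the changes in Kuramochi and OVCAR4. Over protein-coding genes in 4 classes of transcript length (up to 1976, 1977 to 3264, 3265 to 5148 and from 5149 bases), the median log2 difference was -0.32, -0.04, 0.17 and 0.42 in Kuramochi and -0.27, -0.02, 0.18 and 0.43 in OVCAR4, against -0.07, 0.00, 0.04 and 0.10 in OVCAR8. Members were counted by the same classes. In Kuramochi 1 of 12, 0 of 12, 3 of 6 and 6 of 6 members of the classes rose, in OVCAR4 0, 0, 4 and 5, and in OVCAR8 6, 5, 2 and 2. The shares of all protein-coding genes of these classes that rose were 4.04%, 9.58%, 21.2% and 37.4% in Kuramochi, 5.21%, 10.4%, 21% and 36.6% in OVCAR4 and 7.12%, 9.06%, 9.7% and 10% in OVCAR8. The median of the longest genes less that of the shortest was 0.57 to 0.94 in Kuramochi 3D libraries and 0.50, -0.40 and -0.09 on plastic, 0.73 to 0.80 in OVCAR4 3D and 0.24, -0.45 and 0.22 on plastic, and 0.07 to 0.29 in OVCAR8 3D and -0.06 to 0.05 on plastic.

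**Figure D3:**
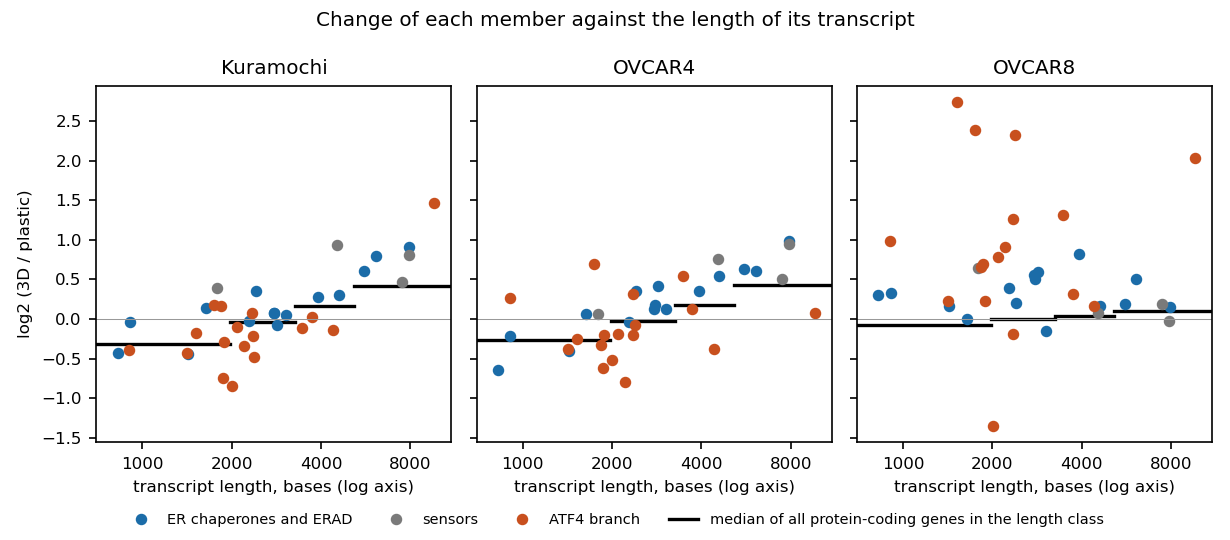
Log2 difference of 3D against plastic over transcript length for the members, with the medians of all protein-coding genes in the 4 length classes, by line. The class medians run from -0.32 to 0.42 in Kuramochi and from -0.07 to 0.10 in OVCAR8.

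With the trend on length removed from each library, 5, 5 and 7 of 15 ER chaperone and ERAD genes and 2, 2 and 1 of 4 sensors rose, in the order Kuramochi, OVCAR4 and OVCAR8, and none fell. Of all genes 12%, 13.3% and 9.96% then rose in the 3 lines. In the ATF4 branch 0, 1 and 11 genes rose and 0, 2 and 1 fell, with 8 of the 11 in OVCAR8 at 2-fold or more. The lost ATF4 branch calls were those of SLC7A11, ATF5 and PHGDH in Kuramochi (0.87, adjusted p = 0.213, -0.64, adjusted p = 0.119 and -0.52, adjusted p = 0.0749) and of SESN2 and PHGDH in OVCAR4 (0.50, adjusted p = 0.0561 and -0.40, adjusted p = 0.17). EIF2AK3 kept its call in Kuramochi (0.76, adjusted p = 0.00221) and in OVCAR4 (0.61, adjusted p = 0.00881), and so did SEL1L (0.47, adjusted p = 0.00467 and 0.57, adjusted p = 0.0016). ATF6 lost its call in both (Kuramochi 0.04, adjusted p = 0.816, OVCAR4 0.10, adjusted p = 0.507), and HSPA5, HYOU1, DNAJC3 and CRELD2 lost theirs in Kuramochi (0.16, adjusted p = 0.15, 0.11, adjusted p = 0.416, 0.32, adjusted p = 0.0771 and -0.13, adjusted p = 0.44). ERN1 lost its call in Kuramochi (0.37, adjusted p = 0.0864) and EDEM1 in OVCAR4 (0.30, adjusted p = 0.0562). In OVCAR8 the value of HSPA5 was 0.84, adjusted p = 1.64e-06, next to 0.82 before. Calls gained in Kuramochi were DNAJB9 (0.48, adjusted p = 0.0489), DNAJB11 (0.42, adjusted p = 0.0184) and MANF (0.42, adjusted p = 0.0399). In OVCAR4 they were DNAJB9 (0.48, adjusted p = 0.0471), DDIT3 (0.67, adjusted p = 0.0309) and, downward, MTHFD2 (-0.53, adjusted p = 0.0145). In OVCAR8 they were HERPUD1 (0.66, adjusted p = 0.0296), PDIA6 (0.47, adjusted p = 0.00713), MANF (0.48, adjusted p = 0.0297) and CTH (0.9, adjusted p = 0.0359).

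In OVCAR8 the ATF4 branch gave the widest changes of the 36 members. ATF4 itself was 0.23 higher without passing (adjusted p = 0.397), at 314, 373 and 368 CPM against 313, 287 and 298 CPM. CHAC1, which degrades glutathione and is a marker of ATF4 activity, was at 9, 28.4 and 27.8 CPM in the OVCAR8 3D libraries and 3.26, 3.58 and 2.94 CPM on plastic (log2 difference 2.74 ± 0.34 (SE), adjusted p = 4.48e-05). All 3D libraries lay above plastic, with libraries 61 and 62 well above library 4. DDIT4 was at 11.6, 41.9 and 42.4 CPM against 6.38, 5.91 and 6.03 CPM (log2 difference 2.39 ± 0.56 (SE), adjusted p = 0.0128), and ASNS at 50.3, 193 and 185 CPM against 22.2, 39.7 and 23.7 CPM (log2 difference 2.32 ± 0.53 (SE), adjusted p = 0.0115). In both genes library 4 was nearer to plastic than to 61 and 62, and did not overlap it. SLC7A11, the cystine importer of system xc-, was at 59.9, 216 and 204 CPM against 35.4, 42.2 and 38.8 CPM (log2 difference 2.04 ± 0.49 (SE), adjusted p = 0.0156). SESN2, a leucine sensor that restrains mTORC1, was at 25.8, 45.3 and 45.6 CPM against 15.4, 16 and 15.5 CPM (log2 difference 1.31 ± 0.18 (SE), adjusted p = 0.000112). TRIB3 was at 24.2, 49 and 48.4 CPM against 17.5, 17.8 and 15.5 CPM (log2 difference 1.26 ± 0.24 (SE), adjusted p = 0.00287). Each of these 3 was higher in every 3D library than on plastic, with library 4 lowest of the 3D libraries. The 6 members that rose at least 2-fold were CHAC1, DDIT4, ASNS, SLC7A11, SESN2 and TRIB3.

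The transcription factors of the branch diverged in OVCAR8. DDIT3 (CHOP) was at 14.2, 22.8 and 21 CPM in the OVCAR8 3D libraries and 9.43, 10.5 and 9.34 CPM on plastic (log2 difference 0.99 ± 0.23 (SE), adjusted p = 0.0104), and CEBPB at 23.8, 27.6 and 31.3 CPM against 19.3, 16.2 and 16.8 CPM (log2 difference 0.66 ± 0.19 (SE), adjusted p = 0.0325), both without overlap. ATF5, a factor translated under eIF2 phosphorylation like ATF4, went the other way, from 45.7, 38.4 and 41.9 CPM on plastic to 26.7, 11.3 and 11.6 CPM (log2 difference -1.35 ± 0.30 (SE), adjusted p = 0.00715). It was the 1 member that fell at least 2-fold. CEBPG, the dimer partner of ATF4, was higher in libraries 61 and 62 only, at 48.8, 69.4 and 68.9 CPM against 49.6, 49.6 and 50.3 CPM (adjusted p = 0.121). PPP1R15A (GADD34), which brings the phosphatase to eIF2, had overlapping values of 106, 68.9 and 67.8 CPM and 101, 82.2 and 93.8 CPM (adjusted p = 0.602).

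Serine synthesis genes took opposite courses in the lines when all libraries were used. PSAT1, the aminotransferase of the pathway, was at 180, 329 and 326 CPM in the OVCAR8 3D libraries and 141, 161 and 143 CPM on plastic (log2 difference 0.91 ± 0.19 (SE), adjusted p = 0.00583), and in OVCAR4 at 162, 134 and 133 CPM against 210, 261 and 275 CPM (log2 difference -0.80 ± 0.19 (SE), adjusted p = 0.00677). The groups were apart in both lines, upward in OVCAR8 and downward in OVCAR4, whereas in Kuramochi they overlapped (log2 difference -0.34, adjusted p = 0.199). PHGDH, the first enzyme of the pathway, was at 116, 136 and 116 CPM against 165, 227 and 225 CPM in Kuramochi (log2 difference -0.75 ± 0.21 (SE), adjusted p = 0.0136) and at 426, 414 and 413 CPM against 499, 787 and 644 CPM in OVCAR4 (log2 difference -0.62 ± 0.21 (SE), adjusted p = 0.0337), below plastic without overlap. In OVCAR8 PHGDH rose (log2 difference 0.69 ± 0.21 (SE), adjusted p = 0.0404), but its 3D values of 225, 408 and 405 CPM overlapped plastic at 193, 263 and 187 CPM through library 4. With the length trend left in, MTHFD2, the mitochondrial folate enzyme, and CTH, which makes cysteine, passed in no line (in OVCAR8 log2 differences 0.17 and 0.79, adjusted p = 0.482 and 0.0547). SLC3A2, the heavy chain of SLC7A11, also passed in none (in OVCAR8 0.23, adjusted p = 0.389).

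Outside OVCAR8 few members of the ATF4 branch changed. In Kuramochi SLC7A11 rose (log2 difference 1.46 ± 0.49 (SE), adjusted p = 0.037), with values of 29.8, 89.1 and 76.5 CPM against 18.5, 21 and 31.5 CPM that overlapped through 3D library 2 and plastic library 8. ATF5 fell there, at 12.2, 13.1 and 14.2 CPM against 16, 24.2 and 30.8 CPM (log2 difference -0.85 ± 0.30 (SE), adjusted p = 0.0427), without overlap. In OVCAR4 SESN2 rose, at 39.4, 47.6 and 49.5 CPM against 33.6, 30.6 and 29.1 CPM (log2 difference 0.55 ± 0.17 (SE), adjusted p = 0.0276). CHAC1, the leading gene in OVCAR8, was at 13.2, 13.9 and 15 CPM against 16, 18 and 16 CPM in OVCAR4 and 11, 6.08 and 7.28 CPM against 6.71, 8.5 and 12.1 CPM in Kuramochi, and passed in neither (log2 differences -0.25 and -0.17). The Kuramochi plastic libraries were themselves spread. Relative to the line's plastic mean, the mean log2 level of the 17 genes was -0.32 in library 2 and 0.38 in library 8, where all 17 lay above it, and -0.16, -0.25 and 0.00 in the 3D libraries. ATF4 branch calls that rested on single libraries were, in Kuramochi, ATF5 (lost on leaving out any 1 library but Kuramochi plastic 2, OVCAR4 3D 42, OVCAR4 plastic 42, 4 and 6, OVCAR8 3D 4, 61 and 62, OVCAR8 plastic 61, adjusted p up to 0.153), SLC7A11 (lost without any 1 of Kuramochi 3D 4 and 8, Kuramochi plastic 2 and 4, OVCAR8 plastic 61 and 62, adjusted p up to 0.151) and PHGDH (lost without any 1 of Kuramochi 3D 8, Kuramochi plastic 4, adjusted p up to 0.0616), and in OVCAR4 SESN2 (lost without any 1 of OVCAR4 3D 4 and 6, OVCAR4 plastic 4 and 6, OVCAR8 plastic 61, adjusted p up to 0.105) and PHGDH (lost without any 1 of OVCAR4 3D 42, 4 and 6, OVCAR4 plastic 4 and 6, adjusted p up to 0.159).

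**Figure D4:**
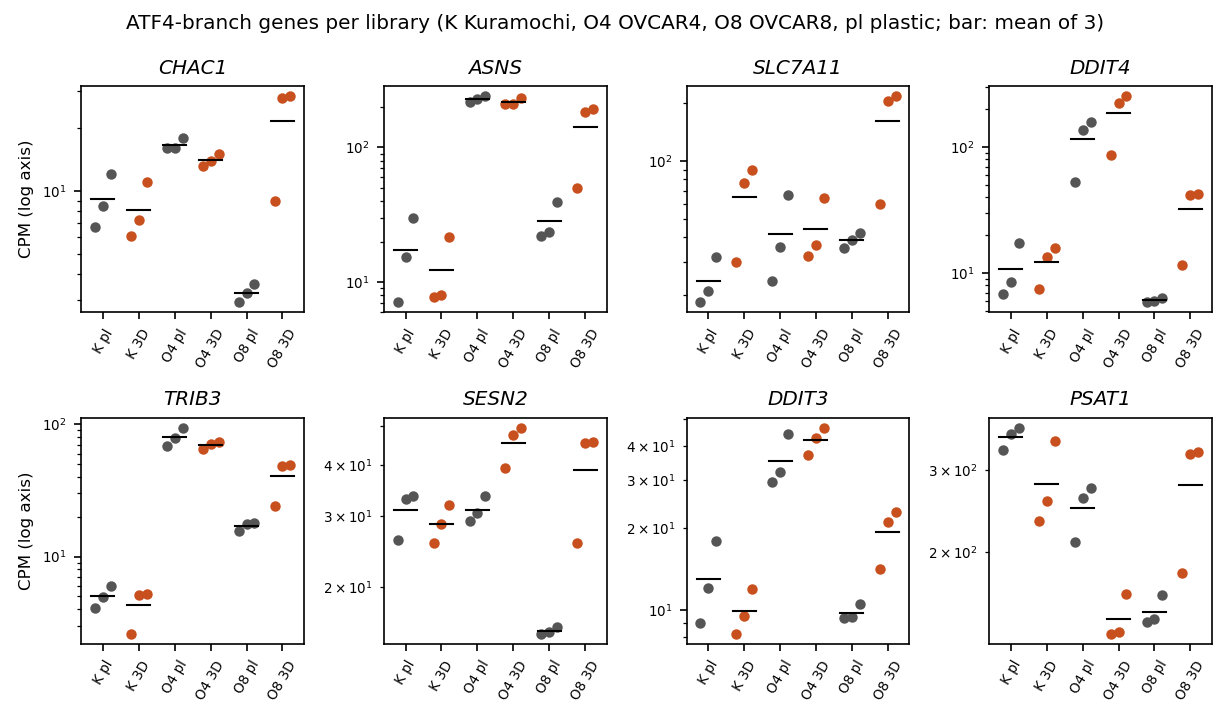
CPM of ATF4 branch genes in each of the 18 libraries, by line and culture, on log axes. In OVCAR8 3D libraries 61 and 62 lie above library 4, as for CHAC1 at 28.4 and 27.8 against 9 CPM.

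The 3 OVCAR8 3D libraries were not alike in the 2 branches. Against the plastic mean, the mean log2 level of the ATF4 branch was 0.36 in library 4 and 1.07 in each of 61 and 62, and 15 of 17 genes were lowest in library 4. For the ER chaperone and ERAD genes the order was turned, at 0.46 in library 4 and 0.23 and 0.24 in 61 and 62, with 12 of 15 genes highest in library 4. Libraries 61 and 62 lay close together (chi-square per degree of freedom 2.75) and apart from library 4 (46.9 and 43.5). Any gene may thus often be highest or lowest in library 4, and the share over all genes was not counted. Fibroblast RNA moved with the split of library 4 from 61 and 62. The fibroblast sums were 702 CPM in library 4 and 2940 and 2040 in 61 and 62, DCN was at 0.407, 30.8 and 16.8 CPM and COL1A2 (0 on plastic) at 8.33, 599 and 367 CPM in the order of the libraries. In OVCAR4 the fibroblast sums also differed, at 140, 1210 and 1180 CPM in libraries 42, 4 and 6, where the ATF4 branch mean was -0.11, -0.11 and -0.09. The part of these cells in the OVCAR8 values was not tested. With library 4 as the lone 3D library the log2 differences were 1.48 (adjusted p = 0.0167) for CHAC1, 0.73 (adjusted p = 0.0778) for SESN2, 0.93 (adjusted p = 1) for DDIT4, 0.83 (adjusted p = 1) for ASNS, 0.52 (adjusted p = 0.947) for TRIB3 and 0.64 (adjusted p = 1) for SLC7A11. They were 0.55 (adjusted p = 1) for DDIT3, 0.46 (adjusted p = 1) for CEBPB, 0.29 (adjusted p = 1) for PSAT1, 0.08 (adjusted p = 1) for PHGDH and -0.65 (adjusted p = 0.931) for ATF5. Without libraries 61 and 62, 1 of 17 ATF4 branch genes rose (CHAC1), where 0.957% of all genes rose and 0.167% fell, and 2 of 15 ER chaperone and ERAD genes rose. The count of 10 rising ATF4 branch genes was 4 on leaving out OVCAR8 3D 61, 3D 62, plastic 4 or plastic 62. In these fits 3.21%, 3.42%, 3.34% and 3.32% of all genes rose in OVCAR8. CHAC1, TRIB3, SESN2 and PSAT1 passed without any 1 library. The calls of the others rested on single libraries: DDIT3 (lost without any 1 of OVCAR8 3D 61 and 62, OVCAR8 plastic 4 and 62, adjusted p up to 0.0696), DDIT4 (lost without any 1 of OVCAR8 3D 61 and 62, OVCAR8 plastic 4, 61 and 62, adjusted p up to 0.0627), ASNS (lost without any 1 of OVCAR8 3D 61 and 62, OVCAR8 plastic 4 and 62, adjusted p up to 0.0691), CEBPB (lost without any 1 of OVCAR8 3D 61 and 62, OVCAR8 plastic 4, 61 and 62, adjusted p up to 0.167), SLC7A11 (lost without any 1 of OVCAR8 3D 61 and 62, OVCAR8 plastic 4 and 62, adjusted p up to 0.0822), PHGDH (lost without any 1 of OVCAR4 3D 4 and 6, OVCAR4 plastic 6, OVCAR8 3D 61 and 62, OVCAR8 plastic 4 and 62, adjusted p up to 0.213) and ATF5 (lost without any 1 of OVCAR8 3D 61 and 62, adjusted p up to 0.0554).

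**Figure D5:**
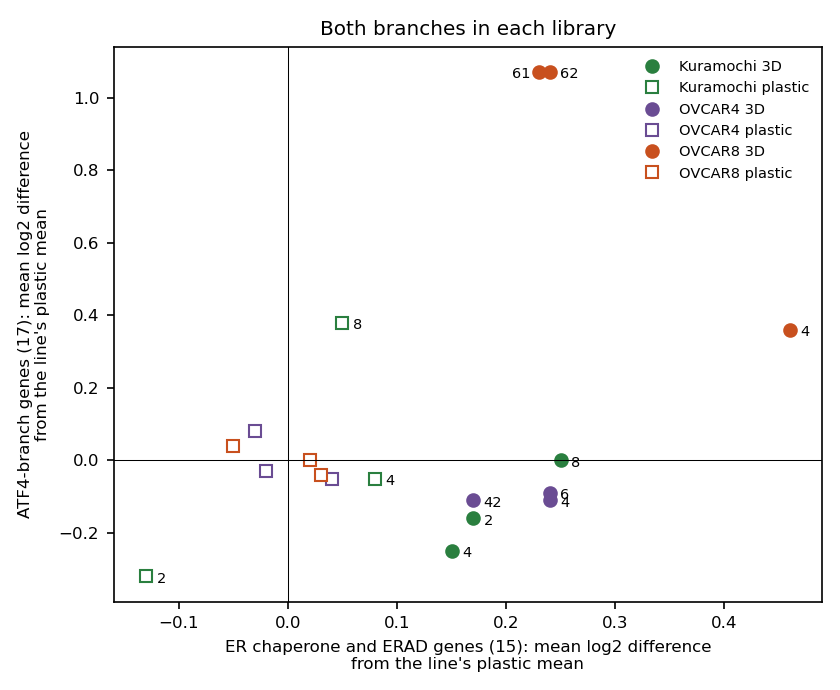
Mean log2 difference of the ER chaperone and ERAD genes and of the ATF4 branch from the plastic mean of the line, for every library. In OVCAR8 3D the ATF4 branch stands at 0.36, 1.07 and 1.07 and the ER chaperone and ERAD genes at 0.46, 0.23 and 0.24 in libraries 4, 61 and 62.

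Whether the 3D change differed between the lines was tested in the same fit. It did for 1 of 15 ER chaperone and ERAD genes (HSPA5), 0 of 4 sensors and 6 of 17 ATF4 branch genes (CHAC1, TRIB3, SESN2, PSAT1, PHGDH and DDIT3), where 6.17% of all genes differed. The log2 change of CHAC1 in OVCAR8 differed by 2.90 ± 0.46 (SE, adjusted p = 0.00104) from that in Kuramochi and by 2.99 ± 0.46 (SE, adjusted p = 0.0012) from that in OVCAR4. That of PSAT1 differed by 1.25 ± 0.27 (SE, adjusted p = 0.0117) from that in Kuramochi and by 1.71 ± 0.27 (SE, adjusted p = 0.00168) from that in OVCAR4, and that of SESN2 by 1.42 ± 0.25 (SE, adjusted p = 0.00248) from that in Kuramochi and by 0.77 ± 0.25 (SE, adjusted p = 0.091) from that in OVCAR4. For HSPA5 the OVCAR8 change differed by 0.53 ± 0.13 (SE, adjusted p = 0.0229) from that in Kuramochi and by 0.47 ± 0.13 (SE, adjusted p = 0.0506) from that in OVCAR4. ASNS, whose OVCAR8 change was among the widest, did not pass this test (adjusted p = 0.0525), nor did DDIT4 (adjusted p = 0.162) and SLC7A11 (adjusted p = 0.171). CHAC1, SESN2, PSAT1 and PHGDH passed without any 1 library. The calls of the others rested on single libraries: HSPA5 (lost without any 1 of Kuramochi 3D 4 and 8, OVCAR4 3D 4 and 6, OVCAR8 3D 4, 61 and 62, OVCAR8 plastic 4 and 62, adjusted p up to 0.104), DDIT3 (lost without any 1 of Kuramochi 3D 2 and 4, Kuramochi plastic 8, OVCAR4 3D 4 and 6, OVCAR4 plastic 6, OVCAR8 3D 61 and 62, OVCAR8 plastic 4, 61 and 62, adjusted p up to 0.112) and TRIB3 (lost without any 1 of OVCAR8 3D 61 and 62, OVCAR8 plastic 4 and 62, adjusted p up to 0.0685). With the replicate number as a block, HSPA5 did not pass (adjusted p = 0.0835), whereas ASNS (adjusted p = 0.00261) and DDIT4 (adjusted p = 0.0306) did. This block also covered OVCAR4 and OVCAR8, where the number was not taken as a pairing. With the length trend removed, DDIT3 did not pass (adjusted p = 0.077) and PDIA4 did (adjusted p = 0.0171). HSPA5 (adjusted p = 0.00154), CHAC1 (0.00168), SESN2 (0.00431), PSAT1 (0.00598), PHGDH (0.0129) and TRIB3 (0.0267) passed there. Without OVCAR8 3D 61 and 62, 1 ATF4 branch gene (CHAC1) and no ER chaperone or ERAD gene differed.

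Some members share sequence with other genes. The exons of ASNS overlap those of a long noncoding gene on the same strand. The mean was 3838.5 counts for ASNS and 3770.6 for the other gene. How reads of the shared exons were assigned was not examined, and the level of ASNS is uncertain. DNAJB11 also overlaps another same-strand gene. On the opposite strand DDIT3 overlaps MARS1 (mean 744.9 counts against 9683.7), ATF5 overlaps NUP62 (1031.8 against 4692.3) and SYVN1 overlaps MRPL49 (2187.4 against 3012.4). Whether these overlaps affected the values of DDIT3, ATF5 and SYVN1 was not tested. The libraries were stranded, whether the counting used strand was not stated in the sources used here, and the antisense genes over exons of HYOU1, EDEM1, EIF2AK3 and SLC7A11 held means of 0.3 to 0.4 counts where these members held 868.6 to 13587.3.

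Neighboring parts of the same pathways were read in lists of genes that are not members. Their counts stand beside 14.4%, 15.2% and 7.51% of all genes that rose in Kuramochi, OVCAR4 and OVCAR8 and 12.8%, 11.9% and 3.32% that fell. Of 13 aminoacyl-tRNA synthetase and export genes, which load tRNA with amino acids, 9 rose in OVCAR8, 2 in Kuramochi and 0 in OVCAR4, and the change differed between lines for 4. AARS1 was at 267, 550 and 541 CPM in the OVCAR8 3D libraries and 203, 233 and 203 CPM on plastic (log2 difference 1.09 ± 0.20, adjusted p = 0.00189), with libraries 61 and 62 far above library 4, and CARS1 likewise (log2 difference 0.85 ± 0.16, adjusted p = 0.00276). Without 61 and 62 AARS1 stood at 0.34 (adjusted p = 0.96) and CARS1 at 0.36 (adjusted p = 0.911). WARS1 was at a like level in all 3D libraries, at 246, 242 and 238 CPM against 110, 109 and 110 CPM (log2 difference 1.14 ± 0.16, adjusted p = 0.000155), and it stood at 1.18 (adjusted p = 0.011) without the pair. Of 14 genes of the eIF2 kinases, phosphatase and exchange factor, 1 rose and 0 fell in OVCAR8, 1 and 1 in Kuramochi and 0 and 4 in OVCAR4. The OVCAR8 gene was EIF2AK2 (PKR, the kinase that senses double-stranded RNA and is induced by interferon), at 306, 253 and 244 CPM against 68.8, 70.5 and 75 CPM (log2 difference 1.91 ± 0.21, adjusted p = 9.15e-06), highest in library 4. Of 12 serine, proline and one-carbon enzymes, 4 rose and 1 fell in OVCAR8, 2 and 2 in Kuramochi and 0 and 2 in OVCAR4. ALDH1L2, a mitochondrial folate enzyme, rose in Kuramochi (log2 difference 2.23 ± 0.54, adjusted p = 0.0074) and OVCAR8 (log2 difference 2.19 ± 0.37, adjusted p = 0.00127), and stood at 1.08 (adjusted p = 0.391) in OVCAR8 without the pair. Of 9 amino acid transporters tested, 1, 1 and 2 rose and 2, 1 and 0 fell in Kuramochi, OVCAR4 and OVCAR8. SLC43A1, a leucine transporter, fell in Kuramochi (log2 difference -0.62 ± 0.20, adjusted p = 0.0276) and rose in OVCAR8 (log2 difference 0.78 ± 0.20, adjusted p = 0.0159), with calls that rested on single libraries (in Kuramochi lost without any 1 of Kuramochi 3D 4, Kuramochi plastic 4 and 8, adjusted p up to 0.1, and in OVCAR8 lost without any 1 of OVCAR8 3D 61 and 62, OVCAR8 plastic 4 and 62, adjusted p up to 0.103, and without both 61 and 62 at 0.39, adjusted p = 1).

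Other lists of the ER are given in the order Kuramochi, OVCAR4 and OVCAR8, beside 14.4%, 15.2% and 7.51% of all genes that rose and 12.8%, 11.9% and 3.32% that fell. Of 17 ER to Golgi transport genes 8, 7 and 0 rose and none fell, with SEC23A, a coat protein of the vesicles that leave the ER, among them (in Kuramochi log2 difference 1.00 ± 0.19, adjusted p = 0.00171). Of 17 other ER folding enzymes 6, 5 and 5 rose and 1, 0 and 1 fell. DNAJC10, an ER reductase, rose in all 3 lines (OVCAR8 log2 difference 0.45 ± 0.14, adjusted p = 0.0433), where the OVCAR8 call was lost on leaving out any 1 library but Kuramochi 3D 2, Kuramochi plastic 2, 4 and 8, OVCAR4 3D 42, OVCAR4 plastic 42 and 4, OVCAR8 3D 4, adjusted p up to 0.163. Without OVCAR8 3D 61 and 62 it stood at 0.41 (adjusted p = 0.854). Of 18 other ERAD genes 5, 2 and 1 rose and 1, 4 and 5 fell. DERL3, a channel component of ERAD, fell in all 3 lines (Kuramochi log2 difference -1.04 ± 0.25, adjusted p = 0.00562, OVCAR4 log2 difference -1.14 ± 0.25, adjusted p = 0.00384 and OVCAR8 log2 difference -0.95 ± 0.25, adjusted p = 0.0206), the last of which was lost without any 1 of OVCAR8 3D 61 and 62, OVCAR8 plastic 4 and 61, adjusted p up to 0.141, and stood at -0.36 (adjusted p = 1) without 61 and 62. UBE2J1, a ubiquitin-conjugating enzyme of ERAD, rose in Kuramochi (log2 difference 0.56 ± 0.14, adjusted p = 0.00696) and fell in OVCAR8 (log2 difference -0.71 ± 0.14, adjusted p = 0.00307), and DERL1 did likewise (log2 difference 0.30 ± 0.11, adjusted p = 0.0464 and log2 difference -0.43 ± 0.11, adjusted p = 0.0158). The call of DERL1 in Kuramochi was lost on leaving out any 1 library but OVCAR8 3D 4, adjusted p up to 0.166, and missed at an adjusted p = 0.0663 with the replicate block. Its call in OVCAR8 was lost without any 1 of OVCAR8 3D 61 and 62, OVCAR8 plastic 4 and 62, adjusted p up to 0.11. Without 61 and 62 the OVCAR8 values were -0.24 (adjusted p = 1) for DERL1 and -0.54 (adjusted p = 0.489) for UBE2J1. Of 21 translocon and glycosylation genes 5, 1 and 0 rose and 1, 3 and 0 fell. Among 15 other targets of ATF4 and CHOP 6, 6 and 4 rose and 1, 1 and 0 fell, with NIBAN1 rising in Kuramochi (log2 difference 1.48 ± 0.31, adjusted p = 0.0027) and OVCAR4 (log2 difference 1.69 ± 0.31, adjusted p = 0.00166). The median log2 difference of this list was 0.47, 0.78 and 0.48, highest in OVCAR4. For the 17 ATF4 branch members it was -0.17, -0.20 and 0.79. Of 10 mitochondrial chaperones and proteases 1, 0 and 0 rose and 5, 5 and 0 fell, TRAP1 in Kuramochi among the latter (log2 difference -0.66 ± 0.12, adjusted p = 0.00121). Of 11 targets of NRF2, the oxidative stress factor, 3, 3 and 1 fell and none rose in any line. With the length trend removed, 12%, 13.3% and 9.96% of all genes rose and 9.18%, 8.73% and 4% fell. Then 8, 5 and 2 ER to Golgi transport genes rose and 1, 1 and 1 fell. Of the other folding enzymes 4, 1 and 6 rose and 0, 0 and 1 fell, and of the other ERAD genes 7, 3 and 2 rose and 1, 1 and 5 fell. Of the other ATF4 and CHOP targets 3, 7 and 6 rose and 1, 1 and 0 fell. Of the NRF2 targets 0, 1 and 0 rose and 1, 1 and 0 fell.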

How the data were processed

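RNA of 18 libraries, 3 per group, was sequenced from stranded poly(A) libraries. The authors trimmed the reads with Trimmomatic 0.33, aligned them to GRCh38 with TopHat2 2.1.0 and counted them per GENCODE gene with HTSeq (submitters' processing notes also name DESeq2 1.12.3), and they deposited the raw counts used here. Identifiers were matched without version to GENCODE 44 (57532 of 58288 matched), which also gave the canonical transcript lengths. Genes were kept with filterByExpr (10 counts, 15 in total), scaled by TMM and fitted with edgeR 4.0.16 (limma 3.58.1, R 4.3.3) in robust quasi-likelihood models over all 6 groups. P-values were adjusted by Benjamini-Hochberg over all 22023 genes, and called under 0.05. CPM are TMM-scaled, and SE is the log2 difference divided by the square root of F. Alternatives were DESeq2 1.42.0, its size factors, no filter, a fit per line, the replicate number as a block, libraries left out, close libraries counted once, and the length trend removed. The members and lists were chosen with earlier results of these data known. All members could be named. From each other list up to 4 genes were eligible, called in the most lines and then by the smallest adjusted p, plus genes called in opposite directions. Same-numbered 3D and plastic libraries deviated together in Kuramochi (correlations 0.17, 0.13 and 0.28), where the number was taken as a pairing. In OVCAR4 the same-numbered correlations were 0.32, 0.09 and 0.15, beside 0.15 and 0.17 between libraries 4 and 6. In OVCAR8 they were 0.10, 0.11 and -0.08. P-values measure the spread between these libraries, which may be technical where the labels name no separate cultures. The scripts were tested on simulated data.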

Additional observations from a re-analysis of the deposited data

Results flagged for a closer look

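For 7 members the change on the 3D culture differed between the 3 lines by an edgeR F test of the difference, adjusted over all genes: HSPA5 (adjusted p = 0.0301), DDIT3 (0.0396), CHAC1 (0.00077), TRIB3 (0.0172), SESN2 (0.00591), PSAT1 (0.00242) and PHGDH (0.00833). With the replicate number as a block HSPA5 was lost (adjusted p = 0.0835). This block also covered OVCAR4 and OVCAR8, where the number was not taken as a pairing. With the length trend removed DDIT3 was lost (adjusted p = 0.077) and HSPA5 passed (adjusted p = 0.00154). PSAT1 rose in OVCAR8 and fell in OVCAR4, and PHGDH rose in OVCAR8 and fell in the other lines. For the others the OVCAR8 change was the highest of the 3. Without OVCAR8 3D 61 and 62 the OVCAR8 log2 differences were 0.29 for PSAT1 and 0.08 for PHGDH. Groups of 3 libraries were not screened for single outlying values.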

How the results depend on the processing

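Counts of members past the threshold are given where they moved by over 1.5 times. The shares of all genes called also moved. In the order Kuramochi, OVCAR4 and OVCAR8, 10.4%, 5.44% and 1.61% rose with close libraries counted as 1 sample, and 9.19%, 2.74% and 0.353% fell. In a fit of each line alone 5.69%, 15.9% and 17.2% rose and 5.55%, 15.2% and 12.5% fell. Without a filter 8.06%, 8.64% and 6.66% rose and 7.35%, 6.73% and 1.61% fell. With DESeq2 16.9%, 16.8% and 9.92% rose and 14.3%, 14.4% and 4.83% fell. With the replicate block 16.2%, 17.5% and 9.72% rose and 13.3%, 12.7% and 4.5% fell. With DESeq2 size factors in edgeR 14.8%, 14.6% and 7.89% rose and 12.6%, 12.6% and 3.13% fell. The share of all genes that differed between lines is given only for the first fit (6.17%). Counts of members that differed under the alternatives therefore have no such share beside them. With DESeq2, 2 ER chaperone and ERAD genes fell in OVCAR4, 3 ER chaperone and ERAD genes differed between lines and 2 sensors differed between lines. With DESeq2 size factors in edgeR, 2 ER chaperone and ERAD genes fell in OVCAR4. Without a filter on low counts, 3 ER chaperone and ERAD genes rose in Kuramochi, 4 ATF4 branch genes fell in Kuramochi, 1 ER chaperone or ERAD gene fell in OVCAR4, 2 ATF4 branch genes rose in OVCAR4, 5 ATF4 branch genes fell in OVCAR4, 3 ER chaperone and ERAD genes differed between lines and 12 ATF4 branch genes differed between lines. In a fit of each line alone, 2 ER chaperone and ERAD genes rose in Kuramochi, 0 ER chaperone and ERAD genes fell in Kuramochi, 1 sensor rose in Kuramochi, 2 ER chaperone and ERAD genes fell in OVCAR4 and 2 sensors rose in OVCAR8. With the replicate number as a block, 0 ER chaperone and ERAD genes fell in Kuramochi and 0 ER chaperone and ERAD genes differed between lines. With the length trend removed, 0 ER chaperone and ERAD genes fell in Kuramochi, 2 sensors rose in Kuramochi, 0 ATF4 branch genes rose in Kuramochi, 0 ATF4 branch genes fell in Kuramochi, 7 ER chaperone and ERAD genes rose in OVCAR8 and 2 ER chaperone and ERAD genes differed between lines. With close libraries counted as 1 sample, 3 ER chaperone and ERAD genes rose in Kuramochi, 0 ER chaperone and ERAD genes fell in Kuramochi, 0 ATF4 branch genes rose in Kuramochi, 1 ATF4 branch gene fell in Kuramochi, 3 ER chaperone and ERAD genes rose in OVCAR4, 1 sensor rose in OVCAR4, 0 ATF4 branch genes rose in OVCAR4, 0 ATF4 branch genes fell in OVCAR4, 1 ER chaperone or ERAD gene rose in OVCAR8, 0 sensors rose in OVCAR8, 2 ATF4 branch genes rose in OVCAR8, 0 ATF4 branch genes fell in OVCAR8, 0 ER chaperone and ERAD genes differed between lines and 1 ATF4 branch gene differed between lines. Without OVCAR8 3D 61 and 62, 3 ER chaperone and ERAD genes rose in Kuramochi, 2 ER chaperone and ERAD genes fell in OVCAR4, 2 ER chaperone and ERAD genes rose in OVCAR8, 0 sensors rose in OVCAR8, 1 ATF4 branch gene rose in OVCAR8, 0 ATF4 branch genes fell in OVCAR8, 0 ER chaperone and ERAD genes differed between lines and 1 ATF4 branch gene differed between lines. Without OVCAR4 3D 4 and 6, 3 ER chaperone and ERAD genes rose in Kuramochi, 0 ER chaperone and ERAD genes fell in Kuramochi, 0 ATF4 branch genes rose in Kuramochi, 1 ATF4 branch gene fell in Kuramochi, 0 ER chaperone and ERAD genes rose in OVCAR4, 0 sensors rose in OVCAR4, 0 ATF4 branch genes rose in OVCAR4, 0 ATF4 branch genes fell in OVCAR4 and 0 ER chaperone and ERAD genes differed between lines. On leaving out each library in turn, 3 to 5 ER chaperone and ERAD genes rose in Kuramochi, 0 to 2 ER chaperone and ERAD genes fell in Kuramochi, 2 to 4 sensors rose in Kuramochi, 0 to 1 ATF4 branch genes rose in Kuramochi, 0 to 5 ATF4 branch genes fell in Kuramochi, 4 to 6 ER chaperone and ERAD genes rose in OVCAR4, 0 to 2 ER chaperone and ERAD genes fell in OVCAR4, 2 to 3 sensors rose in OVCAR4, 0 to 1 ATF4 branch genes rose in OVCAR4, 1 to 4 ATF4 branch genes fell in OVCAR4, 2 to 6 ER chaperone and ERAD genes rose in OVCAR8, 4 to 12 ATF4 branch genes rose in OVCAR8, 0 to 1 ATF4 branch genes fell in OVCAR8, 0 to 5 ER chaperone and ERAD genes differed between lines, 0 to 2 sensors differed between lines, 4 to 11 ATF4 branch genes differed between lines, 11 to 13 members were at least 2-fold apart on plastic between OVCAR4 and Kuramochi, 8 to 12 members were at least 2-fold apart on plastic between OVCAR8 and Kuramochi and 15 to 16 members were at least 2-fold apart on plastic between OVCAR8 and OVCAR4, and other counts did not move. The highest of these came without Kuramochi plastic 2 (5 ATF4 branch genes fell in Kuramochi and 4 in OVCAR4, as without Kuramochi plastic 8 in the latter, and 5 ER chaperone and ERAD genes differed between lines) and without OVCAR8 3D 4 (11 ATF4 branch genes differed). Of 108 calls (36 members in 3 lines), 0 lost and 6 gained with DESeq2, 0 lost and 3 gained with DESeq2 size factors in edgeR, 4 lost and 10 gained without a filter on low counts, 8 lost and 7 gained in a fit of each line alone, 3 lost and 4 gained with the replicate number as a block, 1 lost and 0 gained with library sizes free of mitochondrial genes, 13 lost and 9 gained with the length trend removed, 26 lost and 0 gained with close libraries counted as 1 sample, 15 lost and 3 gained without OVCAR8 3D 61 and 62 and 18 lost and 0 gained without OVCAR4 3D 4 and 6. MANF in Kuramochi turned from -0.04 (not called) to 0.42 (adjusted p = 0.0399, called) with the length trend removed. The removal of the length trend and of the close pairs was chosen after seeing the data. In OVCAR4 and OVCAR8 the number was not taken as a pairing, although same-numbered OVCAR4 libraries also correlated (0.32, 0.09 and 0.15). The block there gave MTHFD2 in OVCAR4 an adjusted p = 0.0263 and HERPUD1 and PDIA6 in OVCAR8 0.0337 and 0.0343. Between lines it gave 0.0835 for HSPA5, 0.0306 for DDIT4 and 0.00261 for ASNS. It changed no other call of the members than these and those given for Kuramochi. With 1 3D library left, that library was assumed to vary like the other groups. Depth did not limit the members, which had at least 85 counts in every library.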
